A study of Mus musculus with 12 samples.

Results

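The genes described here are 7 transcripts of the red blood cell lineage found in RNA of mouse neutrophils: the beta-globin genes Hbb-bs and Hbb-bt, the alpha-globin genes Hba-a1 and Hba-a2, and Alas2, Klf1 and Car2. They were taken as a named list, all 7 had a row among the 15986 genes of the deposited tables, and all 7 passed the filter on low counts that left 10802 genes for testing. The cells were Ly6G+ mature neutrophils from mouse bone marrow, and 4 groups of 3 libraries each were compared: Rab27a knockout (Rab27aKO) cells with CpG, unstimulated Rab27aKO cells, wild-type cells with CpG and unstimulated wild-type cells. CpG was 5 µM CpG-B (ODN 1826), a synthetic DNA ligand of the receptor TLR9, given for 6 h at 37C, and the other cells were kept as long with vehicle or untreated, as the labels say in different places. All titles give the strain as C57BL/6. The sources used here do not give the Rab27a allele, the crosses behind the knockout, or the sex, age and number of the animals. Nothing says that the libraries of a group came from separate animals, and p-values then reflect only their spread, which may be technical.

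PolyA RNA gave 10928813 to 15513279 estimated counts per library. Rab27a, which encodes a small GTPase that docks secretory organelles, stood at 99.8 to 106 CPM (counts scaled to a library total of 1000000) in knockout cells with CpG and 104 to 125 CPM in unstimulated knockout cells, against 209 to 279 CPM in wild-type cells with CpG and 237 to 332 CPM in unstimulated wild-type cells. Every knockout library lay below every wild-type one, and the sources used here do not say which part of the gene was deleted. Markers of mature neutrophils (13 genes such as S100a8, S100a9 and Ly6g) summed to 74826 to 109787 CPM in the knockout libraries and 98829 to 115517 CPM in the wild-type libraries, and none of them was at 0. The labels number the libraries of each genotype 1 to 3 within each treatment, and do not say whether libraries with the same genotype and number came from 1 animal. In erythroid RNA the knockout libraries numbered 1 were the lowest and those numbered 3 the highest of all libraries in both treatments. Those numbered 2 also lay below every wild-type library. Some fold changes of members that rest on the libraries numbered 1 or 3 are given with and without them.

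Haemoglobin is a tetramer of alpha-type and beta-type globin chains around heme, and red cell precursors in the bone marrow make both chains in matched amounts. Mouse adult beta-globin comes from a pair of adjacent genes on chromosome 7 and adult alpha-globin from a pair on chromosome 11. Laboratory strains carry different versions of the beta-globin pair, and Hbb-bs with Hbb-bt is the version of C57BL/6 mice. Which version the animals carried was not tested. Alas2 encodes the erythroid form of the enzyme that starts heme synthesis, Car2 a carbonic anhydrase abundant in red cells, and Klf1 a zinc finger factor that binds CACCC boxes and drives adult beta-globin transcription, while GATA1 binds GATA sites in the same genes. Erythroid precursors are plentiful in bone marrow, where neutrophils also form.

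The 250 bases before the start of Hbb-bt, Hbb-bs and Hba-a1 are shown because the beta-globin genes parted from alpha-globin in the knockout. They are from RefSeq on GRCm38.p6, at chr7:103813924-103814173 on the minus strand, chr7:103827929-103828178 on the minus strand and chr11:32283422-32283671 on the plus strand, each written 5′ to 3′ in the direction of the gene, with CACCC and GATAA in capitals.
Hbb-bt: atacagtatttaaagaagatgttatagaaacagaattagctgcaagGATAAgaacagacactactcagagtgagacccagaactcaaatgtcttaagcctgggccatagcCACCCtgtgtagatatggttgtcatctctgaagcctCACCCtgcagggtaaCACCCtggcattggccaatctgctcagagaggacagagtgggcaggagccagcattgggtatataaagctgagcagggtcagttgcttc
Hbb-bs: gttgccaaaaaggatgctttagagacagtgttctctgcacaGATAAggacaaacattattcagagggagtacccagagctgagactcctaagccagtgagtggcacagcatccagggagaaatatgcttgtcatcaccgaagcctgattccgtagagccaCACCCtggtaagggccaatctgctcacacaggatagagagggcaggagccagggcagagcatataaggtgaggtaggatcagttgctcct
Hba-a1: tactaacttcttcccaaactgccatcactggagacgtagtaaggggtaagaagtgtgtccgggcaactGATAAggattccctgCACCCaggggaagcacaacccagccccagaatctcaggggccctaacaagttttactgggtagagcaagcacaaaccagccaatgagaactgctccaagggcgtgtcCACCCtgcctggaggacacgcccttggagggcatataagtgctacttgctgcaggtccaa
Both strands were searched, and all capitals here are on the strand shown, where these motifs cannot overlap each other. Hbb-bt held 3 CACCC and 1 GATAA, Hbb-bs 1 CACCC and 1 GATAA, and Hba-a1 2 CACCC and 1 GATAA. The promoters of Hba-a2, Alas2 and Klf1 also held at least 1 of each motif, and Car2 had no entry in the table used. Of 32851 mouse promoters of this length, 52% held CACCC and 22.6% held GATAA, so CACCC in particular is common by letters alone, and a match is a description, not a binding site.

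The coding sequences of Hbb-bt and Hbb-bs are nearly the same, which matters for how their reads can be told apart. Over 444 coding bases in the GENCODE transcripts they differed at 1 base, with 416 identical bases in a row. The 41 coding bases around it (397 to 437, counted from 1 at the A of the start codon) are shown with that base in capitals, T417C from Hbb-bt to Hbb-bs.
Hbb-bt: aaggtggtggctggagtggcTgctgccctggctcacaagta
Hbb-bs: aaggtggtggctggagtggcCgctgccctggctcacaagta
Most of the sequence difference lay in the untranslated ends: the aligned 3′ untranslated ends (132 and 131 bases) had 36 mismatches and the 5′ ends 9. Hba-a1 and Hba-a2 likewise differed at 1 of 429 coding bases, and their untranslated ends had no mismatch in the aligned part. RSEM, which the submitters' processing notes name, divides reads shared by such copies by an estimate, so each pair's split is less certain than its sum, and sums are given beside the single genes.

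The amount of erythroid RNA varied far more among knockout libraries than among wild-type ones. The 7 genes together took 0.047%, 0.156% and 0.63% of counts in knockout cells with CpG numbered 1, 2 and 3, and 0.0424%, 0.181% and 0.654% in unstimulated knockout cells, against 0.523%, 0.446% and 0.435% in wild-type cells with CpG and 0.535%, 0.514% and 0.393% in unstimulated wild-type cells. The knockout library numbered 1 was the lowest and the one numbered 3 the highest of its group in both treatments. Those numbered 3 lay above every wild-type library, and those numbered 1 and 2 below every wild-type library. The highest knockout library held 13.4 times the summed CPM of the lowest with CpG and 15.4 times unstimulated, against 1.2 times among wild-type libraries with CpG and 1.36 times among unstimulated ones. Number 1 lowest and number 3 highest in both knockout treatments held for 6 of 7 members (Hbb-bt was the exception), for 48 of 69 tested genes on the erythroid lists and for 16.1% of all genes tested. In bulk RNA, fewer erythroid cells and less erythroid RNA per cell cannot be told apart.

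**Figure D1:**
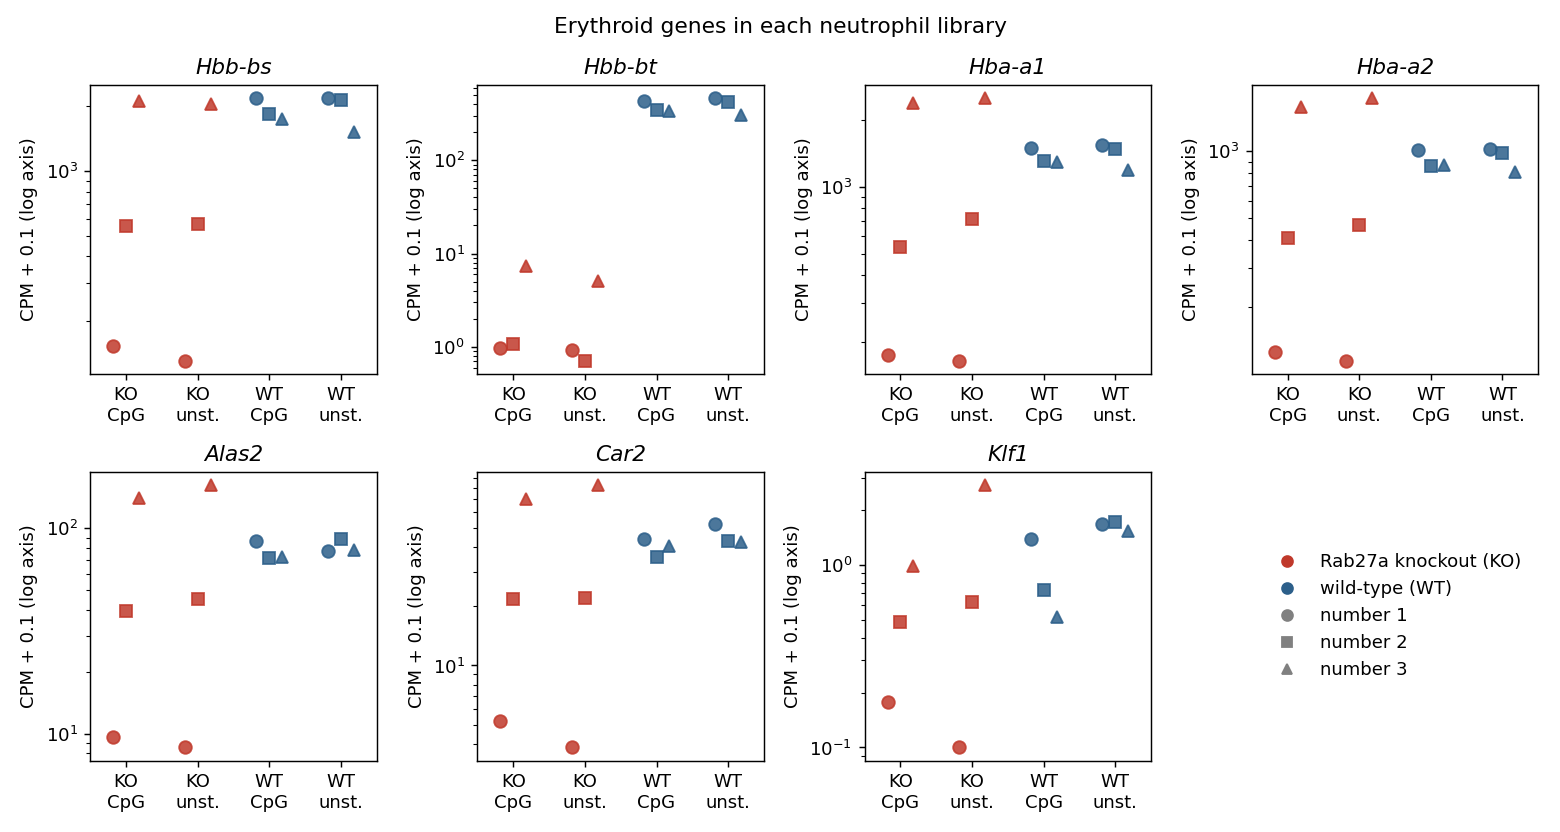
CPM plus 0.1 (log axis, scaled separately for each gene) of the 7 erythroid genes in every library, with knockout in red left of wild-type in blue and the library number as the marker shape. In most panels the knockout libraries spread from far below to above the wild-type ones in the order 1, 2, 3, whereas all 6 Hbb-bt values of the knockout stay below every wild-type value.

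Markers of other marrow cells moved with the library number as well. Summed over 11 B lineage markers, knockout libraries numbered 1, 2 and 3 held 9.18, 38.3 and 123 CPM with CpG and 8.19, 33.8 and 115 CPM unstimulated, against 41.9 to 53.8 CPM in wild-type libraries with CpG and 34.2 to 43.5 CPM in unstimulated ones. The 9 dendritic cell markers had the same order by number in the knockout (101, 176 and 235 CPM with CpG and 48.4, 81.4 and 154 CPM unstimulated), against 146 to 165 CPM in wild-type libraries with CpG and 98.2 to 107 CPM in unstimulated ones. The 10 markers of immature neutrophils and progenitors, such as Mpo and Elane, ran from 577 to 1337 CPM in knockout libraries in the same order by number, against 770.3 to 909 CPM in wild-type libraries. The sum of 14 monocyte and macrophage markers did not follow the number and was lower in the knockout, at 2086 to 2209.5 CPM with CpG and 1223 to 1323 CPM unstimulated, against 2418 to 2479 CPM in wild-type libraries with CpG and 1705 to 1754 CPM in unstimulated ones. Of the 14, edgeR called 2 lower in each treatment, and 1 higher with CpG. Of all genes tested, 2.64% unstimulated and 2.21% with CpG were called lower, and 1.7% with CpG were called higher. The sum of 7 basophil and mast cell markers was higher in every knockout library, at 1008 to 1509 CPM with CpG and 1217 to 1525 CPM unstimulated, against 734 to 844 CPM in wild-type libraries with CpG and 894 to 953 CPM in unstimulated ones. In each treatment 1 of 6 tested was called higher, beside 2.11% of all genes unstimulated and 1.7% with CpG. The list did not move as 1: in each treatment 3 of the 6 had a negative estimate. Its median log2 fold change was 0.05 unstimulated and 0.02 with CpG, so the higher sum does not stand for the list as a whole. T and NK cell markers (3.85 to 12.9 CPM) and eosinophil markers (17.9 to 45.8 CPM) summed highest in the knockout libraries numbered 3 among knockout libraries. Wild-type libraries held 6.3 to 7.17 CPM with CpG and 4.46 to 6.04 CPM unstimulated for T and NK markers. For eosinophil markers they held 27.5 to 52.7 CPM with CpG and 32.1 to 42.9 CPM unstimulated. Neither list kept the order 1, 2, 3 in both knockout treatments. The 10 megakaryocyte and platelet markers summed to 32.1 to 35.8 CPM in knockout libraries with CpG and 27 to 38.3 CPM unstimulated. Wild-type libraries held 42.3 to 52.1 CPM with CpG and 36.7 to 38.1 CPM unstimulated. Of the 4 tested, 1 was called lower unstimulated and 0 with CpG. None of these lists had a gene at 0 in all libraries. The part of these cells in the results below was not tested.

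Hbb-bs, the more abundant beta-globin gene, spread widely in the knockout. It stood at 154, 554 and 2105 CPM in knockout libraries 1 to 3 with CpG and at 131, 567 and 2037 CPM in unstimulated ones, against 2167, 1831 and 1738 CPM in wild-type libraries with CpG and 2176, 2125 and 1509 CPM in unstimulated ones. The knockout libraries numbered 3 lay within the wild-type range and the other 4 below it. The fitted difference of knockout from wild-type was a log2 fold change of -1.14 (standard error, SE, 0.79) unstimulated and -1.03 (SE 0.79) with CpG. Neither passed an adjusted p of 0.05 in the quasi-likelihood test of edgeR, where p-values are adjusted over all tested genes by Benjamini-Hochberg (adjusted p = 0.512 and 0.532). Without the knockout libraries numbered 3, a setting chosen after seeing the data, Hbb-bs passed in both treatments (log2 -2.41, edgeR adjusted p = 0.0334 unstimulated, and log2 -2.31, adjusted p = 0.0353 with CpG). That setting leaves the knockout libraries with the least erythroid RNA, and it does not set that amount aside. Hba-a1, Hba-a2, Alas2 and Car2 were called in no alternative. Their lowest log2 fold changes there were -1.62, -1.64, -1.54 and -1.77 unstimulated, and -1.81, -1.64, -1.51 and -1.43 with CpG.

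Hbb-bt, its neighbour, was nearly absent from every knockout library. Knockout libraries 1 to 3 held 11, 15 and 89 counts with CpG and 9, 7 and 54 counts unstimulated, against 5653, 4410 and 3977 counts in wild-type libraries with CpG and 5312, 5476 and 3837 counts in unstimulated ones. In CPM it averaged 3.02 ± 3.64 in knockout cells with CpG and 2.12 ± 2.44 in unstimulated knockout cells, and 371 ± 51 in wild-type cells with CpG and 396 ± 82 in unstimulated wild-type cells (SD, n = 3 each). The groups did not overlap. The knockout libraries numbered 3, which held the most alpha-globin of all, were still more than an order of magnitude below the lowest wild-type library in Hbb-bt.

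Hbb-bt was 189-fold lower in unstimulated knockout cells (log2 -7.56, SE 0.64; edgeR adjusted p = 7.17e-06) and 124-fold lower with CpG (log2 -6.95, SE 0.61; edgeR adjusted p = 1.12e-05). It was the only 1 of 7 members called in either genotype comparison, and DESeq2 also called it alone. Of all genes tested, 4.75% were called unstimulated (2.64% lower and 2.11% higher in the knockout) and 3.92% with CpG (2.21% lower and 1.7% higher). It was also the only member with every knockout library below every wild-type library, which held for 13% of all tested genes unstimulated and 14.3% with CpG. Over 23 alternatives its log2 fold change stayed between -9.03 and -7.13 unstimulated and between -8.50 and -6.47 with CpG, with adjusted p at most 0.000508.

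Of all beta-globin counts, Hbb-bt made up 0.559%, 0.174% and 0.342% in knockout libraries 1 to 3 with CpG and 0.622%, 0.108% and 0.242% in unstimulated ones, against 16.5%, 16% and 16.2% in wild-type libraries with CpG and 17.6%, 16.5% and 16.8% in unstimulated ones. Exact binomial 95% intervals, which cover counting error only, reached up to 1.18% in the knockout and down to 15.5% in wild-type. Summed over both genes, beta-globin stood at 155, 555 and 2113 CPM in knockout libraries 1 to 3 with CpG and 132, 568 and 2041 CPM unstimulated, against 2073 to 2596 CPM in wild-type libraries with CpG and 1814 to 2640.1 CPM unstimulated. The wild-type share was nearly constant across libraries, and the knockout share varied more, at 7 to 89 counts. The mean log2 share fell by 5.76 in the knockout (exact permutation test of genotype within treatment, two-sided, p = 0.005, the smallest it can give; n = 6 each). Averaged over the libraries that share genotype and number, the same exact test gave p = 0.1, the smallest that 3 against 3 allow. The test within treatment takes libraries that share genotype and number as independent, although most such pairs were correlated.

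The alpha-globin genes did not differ between genotypes beyond the spread of the knockout. Hba-a1 stood at 175, 537 and 2399 CPM in knockout libraries 1 to 3 with CpG and 165, 714 and 2513 CPM unstimulated, against 1493, 1310.1 and 1294 CPM in wild-type libraries with CpG and 1549, 1477 and 1186 CPM unstimulated. The knockout values lay on both sides of the wild-type ones, with log2 fold changes of -0.37 (SE 0.78) unstimulated and -0.41 (SE 0.78) with CpG. Hba-a2 stood at 115 to 1734 CPM in knockout libraries and 808 to 1029 CPM in wild-type ones, and gave -0.35 (SE 0.77) and -0.37 (SE 0.77) with the same treatments in the same order. The ratio of Hba-a2 to Hba-a1 counts was 0.652 to 0.764 in knockout libraries and 0.657 to 0.681 in wild-type ones, a log2 difference of 0.06 that did not pass the exact permutation test (p = 0.165, adjusted 0.247 over 9 ratios, n = 6 each).

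Alas2 and Car2 followed alpha-globin. Alas2 stood at 9.5, 39.6 and 139.8 CPM in knockout libraries 1 to 3 with CpG and 8.46, 45.2 and 163 CPM unstimulated, against 71.8 to 87 CPM in wild-type libraries with CpG and 77.8 to 88.4 CPM unstimulated. Car2 stood at 5.1, 21.6 and 69.9 CPM in knockout libraries with CpG and 3.73, 21.8 and 82.7 CPM unstimulated, against 35.3 to 44 CPM in wild-type libraries with CpG and 42.3 to 52 CPM unstimulated. In both genes the knockout libraries numbered 1 and 2 lay below all wild-type ones and those numbered 3 above them. Fitted log2 fold changes were -0.24 unstimulated and -0.30 with CpG for Alas2 (SE 0.78 each), and -0.40 and -0.31 for Car2 (SE 0.77 each), none past the threshold. A single transcript of Alas2 took 73.9 to 95.4% of its counts in knockout libraries and 83.4 to 90.4% in wild-type ones.

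Klf1, the transcription factor of the set, was near the limit of detection. Knockout libraries 1 to 3 held 1, 6 and 11 counts with CpG and 0, 6 and 29 counts unstimulated, against 17, 8 and 5 counts in wild-type libraries with CpG and 18, 21 and 18 counts unstimulated. Its groups overlapped in both treatments, and the log2 fold changes of -0.58 (SE 0.82) unstimulated and -0.75 (SE 0.93) with CpG did not pass. With the alpha-globin covariate its SE was 0.43 unstimulated and 0.51 with CpG at the same counts.

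Signs of the alpha-globin, Alas2 and Car2 differences hung on the knockout libraries numbered 1. Without both of them, a setting chosen after seeing the data, the log2 fold changes turned to 0.17, 0.19, 0.32 and 0.16 unstimulated for Hba-a1, Hba-a2, Alas2 and Car2, and to 0.11, 0.14, 0.23 and 0.21 with CpG. Hbb-bt kept its direction and its call.

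On a per-length scale the order of the genes also shifted. In deposited TPM, which is scaled for transcript length and was summed over each gene's transcripts, unstimulated knockout cells averaged 5086 ± 5523 for Hba-a1, 3424 ± 3778 for Hba-a2, 3241 ± 3546 for Hbb-bs, 57 ± 63.5 for Alas2, 33.6 ± 38.6 for Car2, 7.77 ± 8.87 for Hbb-bt and 1.18 ± 1.56 for Klf1. Unstimulated wild-type cells averaged 6504 ± 959 for Hbb-bs, 6013 ± 444 for Hba-a1, 3981 ± 248 for Hba-a2, 1363 ± 223 for Hbb-bt, 60.2 ± 4.75 for Alas2, 39.8 ± 4.88 for Car2 and 1.6 ± 0.1 for Klf1 (SD, n = 3 each). Hbb-bt thus stood above Alas2 and Car2 in wild-type cells and below both in knockout cells. With CpG the order was the same in wild-type cells, and in knockout cells Hbb-bs and Hba-a2 changed places: Hba-a1 averaged 4909 ± 4926, Hbb-bs 3472 ± 3411, Hba-a2 3331 ± 3149, Alas2 49.1 ± 52.2, Car2 29.7 ± 30.4, Hbb-bt 11.1 ± 12.5 and Klf1 0.503 ± 0.447 TPM in knockout cells, and Hbb-bs 6372 ± 881, Hba-a1 5738 ± 563, Hba-a2 3786 ± 417, Hbb-bt 1266 ± 197, Alas2 57.7 ± 7.56, Car2 35.1 ± 4.07 and Klf1 0.827 ± 0.494 TPM in wild-type cells. Judged by the SD among libraries, Hbb-bs and Hba-a1 did not differ beyond their spread in wild-type cells while the other steps did, and in knockout cells the spread covered most steps. That SD leaves out that the genes were read in the same libraries. Within unstimulated knockout libraries 1 to 3, Hba-a1 (756, 3195 and 11306 TPM) stood above Hba-a2 (522, 2055 and 7696 TPM) and Hbb-bs (477, 2005 and 7239 TPM) each time. In knockout libraries 1 and 2 with CpG, Hba-a2 (532 and 2722 TPM) still stood above Hbb-bs (522 and 2688 TPM). Only number 3 had Hbb-bs above Hba-a2 (7208 against 6741 TPM), so the change of places in the averages with CpG rests on that library.

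Ratios within a library set the amount of erythroid RNA aside. Per count of alpha-globin (Hba-a1 plus Hba-a2), Hbb-bt was 0.0518 to 0.293% in the 6 knockout libraries, against 15.3 to 18% in the 6 wild-type libraries. The mean was 106-fold lower in the knockout (a log2 difference of -6.73, counts plus 1), and the genotypes did not overlap. Hbb-bs per alpha-globin was 0.467 to 0.585 in knockout libraries and 0.757 to 0.865 in wild-type ones, 1.63-fold lower, again with no overlap. Taking both beta-globin genes together, a ratio added after seeing the data that does not depend on how their shared reads were split, gave 0.47 to 0.586 in knockout libraries and 0.91 to 1.04 in wild-type libraries, 1.95-fold lower. The summed counts of beta-globin and alpha-globin were thus near parity in wild-type cells and not in knockout cells. These counts are not scaled for transcript length, so parity of counts does not mean equal numbers of transcripts.

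Each of these 3 ratios had the smallest p of the exact permutation test within treatment (p = 0.005, two-sided, Benjamini-Hochberg adjusted p = 0.009 over the 9 ratios computed, lower in 6 of 6 knockout libraries). These p-values take libraries that share genotype and number as independent. Over means per genotype and number the exact permutation test gave p = 0.1, the smallest possible. In contrast, Alas2 per alpha-globin was 3.02 to 4.18% in knockout libraries and 3.02 to 3.94% in wild-type ones, a log2 difference of 0.06 (exact permutation p = 0.565, adjusted 0.636). Car2 per alpha-globin was 1.33 to 2.28% in knockout libraries and 1.63 to 2.12% in wild-type ones (log2 -0.04, exact permutation p = 0.74, adjusted 0.74). Klf1 per alpha-globin differed by a log2 of -0.18 (exact permutation p = 0.55, adjusted 0.636), with a range from 0 to 0.0625% in knockout libraries and 0.0195 to 0.0718% in wild-type ones. A p that misses the threshold does not show equality, but for Alas2 and Car2 the SD of the log2 ratio among knockout libraries was only 0.17 and 0.24, although their CPM ranged over more than 10-fold.

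**Figure D2:**
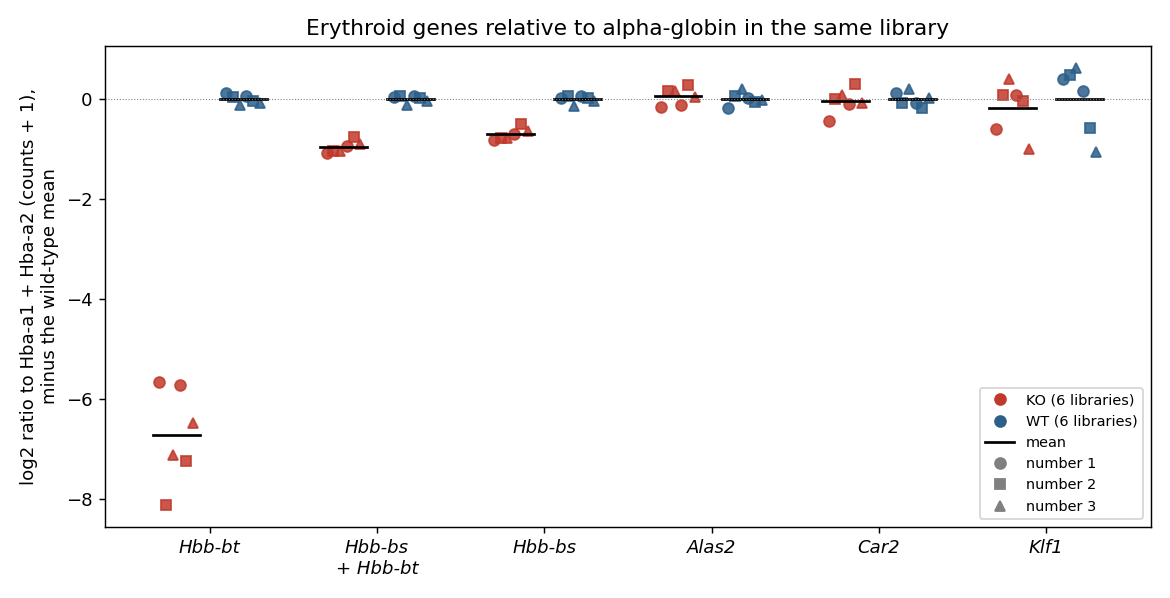
Log2 ratio of each gene's counts to summed Hba-a1 and Hba-a2 counts (1 added to each) in the same library, minus the wild-type mean, with 6 knockout libraries in red left of 6 wild-type libraries in blue and a bar at each mean. The mean differences from wild-type are -6.73 for Hbb-bt, -0.96 for summed beta-globin and -0.71 for Hbb-bs, while Alas2, Car2 and Klf1 overlap with wild-type.

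**Figure D3:**
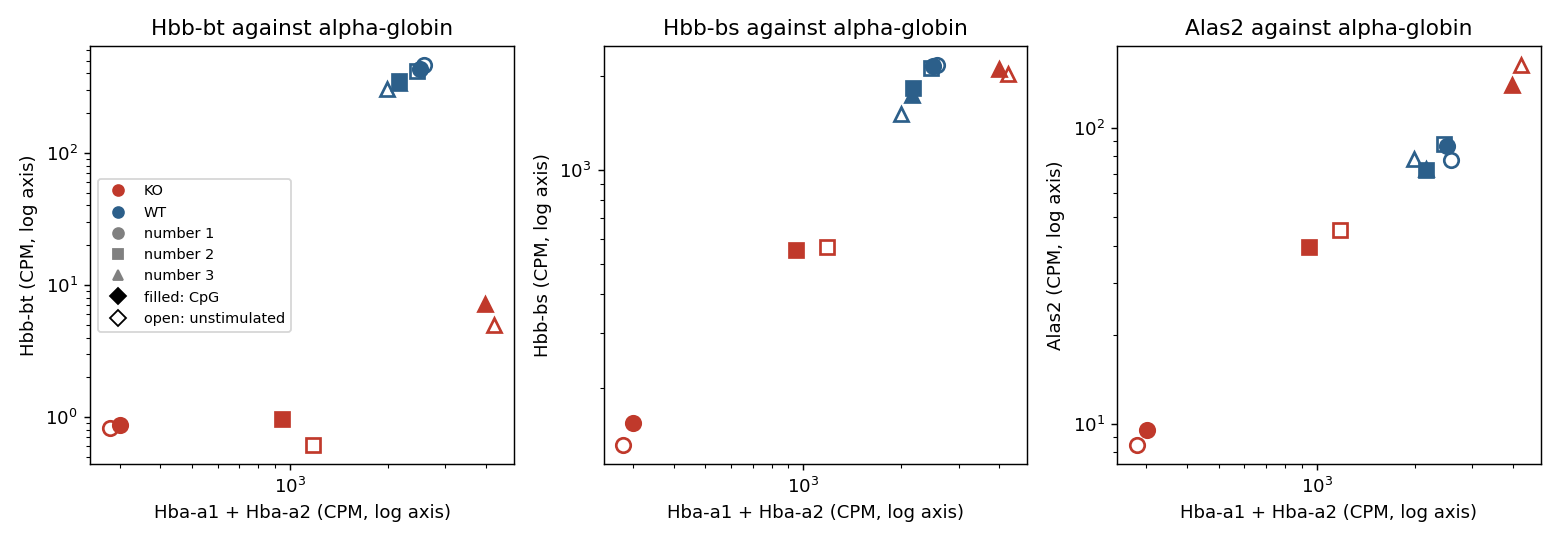
CPM of Hbb-bt, Hbb-bs and Alas2 against summed alpha-globin CPM in the 12 libraries (log axes; knockout red, wild-type blue, filled with CpG and open unstimulated). Alas2 runs along 1 line for both genotypes, Hbb-bs along parallel lines with the knockout lower, and Hbb-bt stays at or below 7.23 CPM in the knockout across the whole range of alpha-globin.

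When log2 CPM of summed alpha-globin was put into the edgeR fit as a covariate, the errors shrank and the beta-globin differences remained. Hbb-bt was then lower by a log2 of -7.27 (SE 0.29; edgeR adjusted p = 9.96e-09) in unstimulated knockout cells and -6.59 (SE 0.29; adjusted p = 2.34e-08) with CpG. Hbb-bs passed as well, at -0.82 (SE 0.10; edgeR adjusted p = 0.000142) and -0.60 (SE 0.10; adjusted p = 0.00232), so 2 of the 5 members outside the covariate were called in each treatment. Across all genes this fit called 6.12% unstimulated and 5% with CpG. Alas2 (0.03 unstimulated, 0.16 with CpG), Car2 (-0.16, 0.19) and Klf1 (-0.39, -0.26) were not called.

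Of 81 listed erythroid genes (globins, heme and iron, transcription, membrane, and enzymes and others), 74 had a row and 69 were tested, the members included. In knockout against wild-type cells edgeR called 0 higher and 3 lower unstimulated, and 0 higher and 2 lower with CpG, shares no larger than the 4.75% and 3.92% called over all genes. At an unadjusted p below 0.05 there were 7 of 69 in each treatment, beside 1903 and 1957 of all 10802 genes. DESeq2 called 4 unstimulated and 3 with CpG, beside 782 and 734 of all genes. The median log2 fold change over the lists was -0.35 unstimulated and -0.26 with CpG, beside -0.01 and -0.00 over all genes. Negative estimates made up 55 and 53 of the 69, beside 5584 and 5417 of all 10802 genes. Many list genes rose and fell together across the knockout libraries, so these estimates are not separate. With the alpha-globin covariate the median over 67 list genes was -0.15 unstimulated and 0.09 with CpG. The genes called included Hbb-bt in both treatments and Mfsd2b, a sphingosine-1-phosphate exporter of red cells and platelets, in unstimulated cells. In the interaction of genotype and CpG 0 list genes were called by edgeR, 0 had an unadjusted p below 0.05 and 0 were called by DESeq2, so a difference between treatments was not shown for Mfsd2b.

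Mfsd2b held 3, 6 and 12 counts in unstimulated knockout libraries, against 22, 26 and 36 counts in unstimulated wild-type ones, and fell by 1.84 on the log2 scale (SE 0.45; edgeR adjusted p = 0.0302). That call was lost without any 1 of 7 libraries (unstimulated knockout 1 or 2, any unstimulated wild-type library, or wild-type CpG 1 or 2), with an adjusted p of up to 0.14, and over 23 alternatives the adjusted p ran from 0.00967 to 0.14.

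The covariate fit called 5 of 67 list genes unstimulated, each lower in the knockout, and 7 with CpG, of which 2 were higher and 5 lower, beside the 6.12% and 5% of all genes called in this fit. Besides Hbb-bt and Hbb-bs these included Nxpe2 in both treatments (log2 -1.89, SE 0.33, and -1.64, SE 0.32), Mfsd2b unstimulated (-1.64, SE 0.38), the peroxide-degrading enzyme gene Cat with CpG (-0.76, SE 0.17), the fetal globin repressor gene Bcl11a with CpG (0.81, SE 0.22) and the ubiquitin ligase gene Ube2o, which clears ribosomes in maturing red cells, with CpG (0.60, SE 0.16). The edgeR adjusted p was 0.00301 and 0.00847 for Nxpe2, 0.0192 for Mfsd2b, 0.017 for Cat, 0.0488 for Bcl11a and 0.0471 for Ube2o. These last 2 genes are close to the threshold. Some abundant list genes did not follow the library number in both knockout treatments: Nfe2, a transcription factor of erythroid cells and megakaryocytes, stood at 342 to 394 CPM in knockout libraries and 315 to 404 CPM in wild-type ones, and Bnip3l, a mitophagy receptor of maturing red cells, at 402 to 469.7 CPM in knockout and 426 to 509 CPM in wild-type libraries. Epb41, which encodes the membrane skeleton protein 4.1, did follow it, at 119, 152 and 227 CPM in knockout libraries 1 to 3 with CpG and 194, 224 and 332 CPM unstimulated, against 173 to 201 CPM in wild-type libraries with CpG and 235 to 255 CPM unstimulated.

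**Figure D4:**
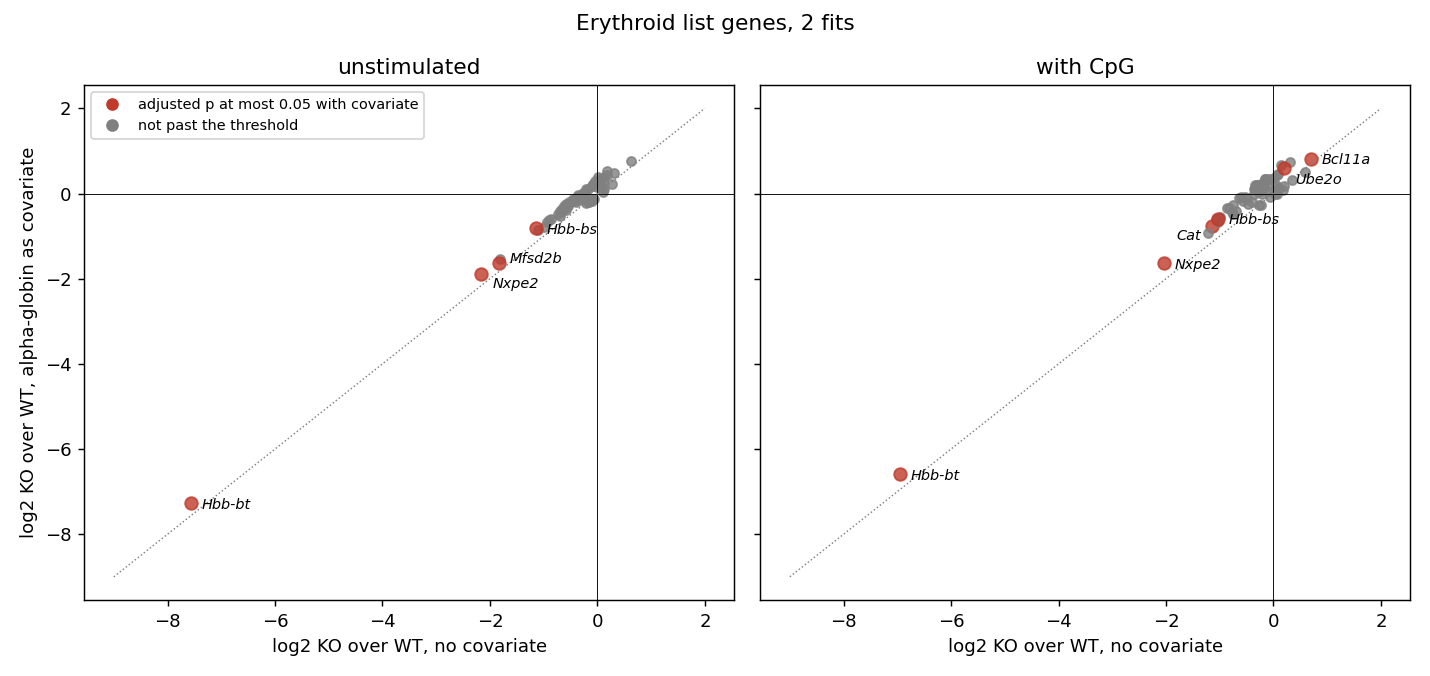
Log2 fold change of knockout over wild-type for most, not all, tested erythroid list genes without (x axis) and with (y axis) summed alpha-globin as a covariate, for unstimulated cells and cells with CpG, where the dotted line marks equal values and red marks an adjusted p of at most 0.05 with the covariate. Hbb-bt stands far down on both axes, and most other genes lie near 0 with the covariate.

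Genes next to the beta-globin pair also differed between genotypes. Among the 10 nearest tested genes on each side of Hbb-bt in RefSeq order on chromosome 7, 7 were lower and 1 higher in unstimulated knockout cells and 6 lower and 1 higher with CpG, beside 4.75% and 3.92% of all genes called in either direction. Around Hbb-bs, which shares 18 of these neighbours, the counts were 8 lower and 1 higher unstimulated and 7 lower and 1 higher with CpG, Hbb-bt included. Of the 8 genes called around Hbb-bt in unstimulated cells, 5 belonged to the tripartite-motif (Trim) family, many of which act in antiviral defence. This family lies beside the beta-globin genes in near copies, so the division of shared reads among its members is uncertain.

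Trim12a held 1, 4 and 5 counts in knockout libraries 1 to 3 with CpG and 0, 7 and 5 counts unstimulated, against 3582, 3084 and 3601 counts in wild-type libraries with CpG and 3100, 2599 and 3455 counts unstimulated. Trim30b held 3 to 11 counts in knockout libraries and 453 to 667 counts in wild-type ones. In the other direction, Trim34b held 365 to 1028 counts in knockout libraries, against 6 to 26 counts in wild-type ones, a log2 fold change of 4.89 (SE 0.33) unstimulated and 5.48 (SE 0.33) with CpG. Trim5 was lower by a log2 of -4.23 (SE 0.28) unstimulated and -4.32 (SE 0.27) with CpG, and Il18bp, which encodes a decoy for interleukin 18, by -2.01 (SE 0.18) and -1.14 (SE 0.17). The predicted gene Gm38525 differed by -2.28 and -2.33 (SE 0.25 each). The edgeR adjusted p of these genes was at most 0.00136 in each treatment. None of these 6 genes had library number 1 lowest and number 3 highest in both knockout treatments, and Trim12a stayed at 7 counts or fewer in each of the 6 knockout libraries whatever their alpha-globin level.

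Around the other members the picture differed. Of 20 neighbours each of Hba-a1 and Hba-a2 on chromosome 11, Alas2 on chromosome X, Klf1 on chromosome 8 and Car2 on chromosome 3, edgeR called 0 in either treatment. At an unadjusted p below 0.05 there were between 0 and 4 of 20, and DESeq2 called 1 neighbour of Alas2 in each treatment and 0 of the rest. Over all 10802 genes, 1903 unstimulated and 1957 with CpG had an unadjusted p below 0.05, and DESeq2 called 782 and 734. Whether the region around the beta-globin genes differed between the genotypes in sequence was not tested, since the deposited tables hold no sequence.

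**Figure D5:**
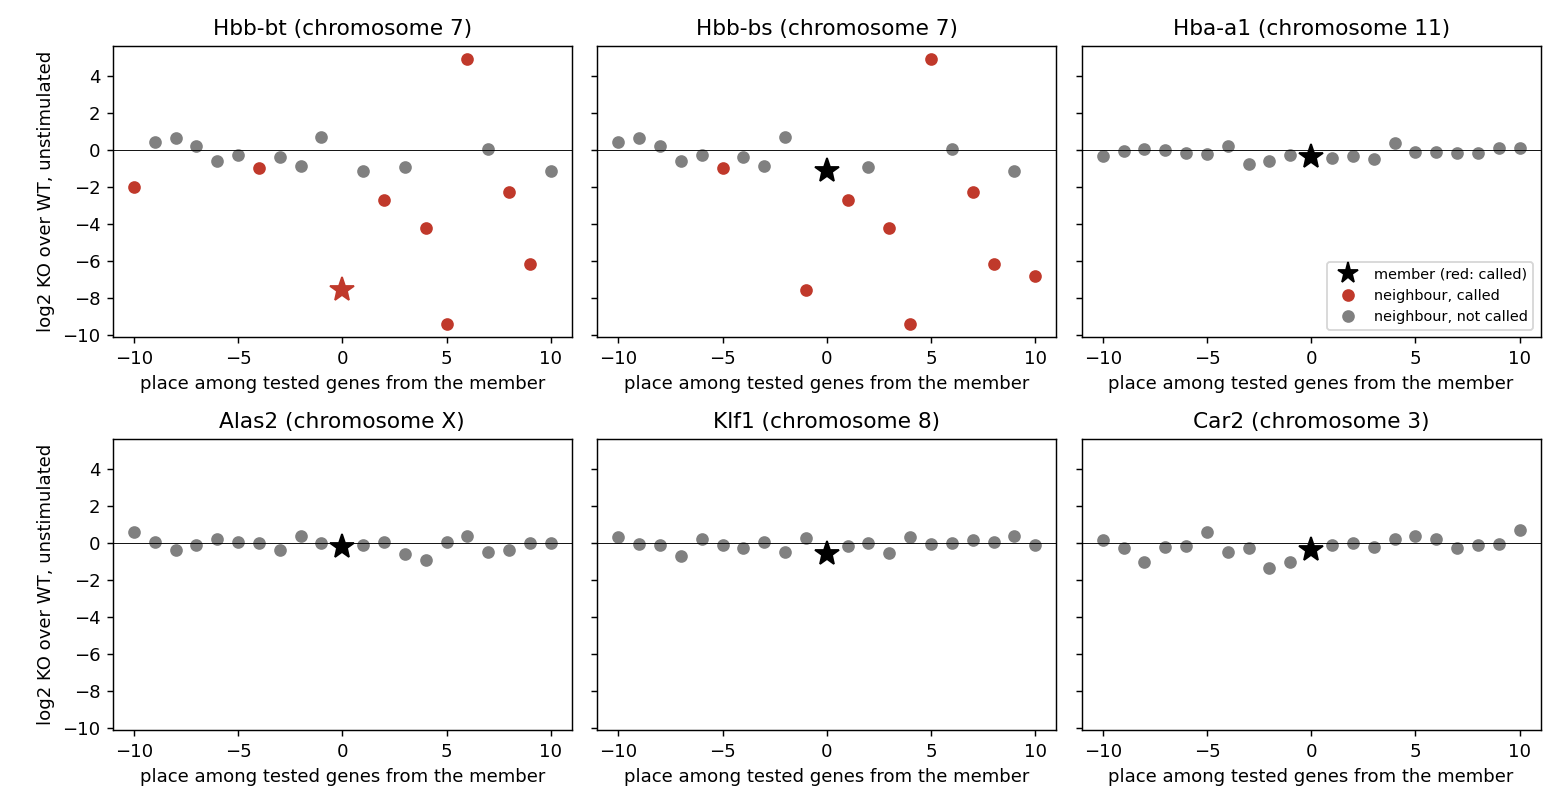
Log2 fold change of unstimulated knockout over wild-type cells for 6 erythroid genes (stars) and the 10 nearest tested genes on each side, by place in gene order, where red marks genes called in edgeR's test. Called genes lie around Hbb-bt and Hbb-bs, and no neighbour is red around Hba-a1, Alas2, Klf1 or Car2.

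No change of a member with CpG passed the test. Of the 7 members 0 were called in knockout cells and 0 in wild-type cells by edgeR, and 0 had an unadjusted p below 0.05 or were called by DESeq2 in either. Of all genes tested, edgeR called 11.6% in knockout cells (7.57% higher and 4.06% lower with CpG) and 6.04% in wild-type cells (4.74% higher and 1.3% lower). An unadjusted p below 0.05 was found for 2440 and 1761 of 10802 genes, and DESeq2 called 1464 and 851, in the same order. In the interaction of genotype and CpG edgeR called 0 members and 0% of all genes, with 0 members and 365 genes at an unadjusted p below 0.05, and DESeq2 called 0 members and 3 genes. With libraries of the same genotype and number paired, edgeR called 2591 genes in knockout cells, 1824 in wild-type cells and 13 in the interaction, against 1257, 652 and 0 without the pairing, and still 0 members in each. The 7 genes summed with CpG were 1.11, 0.862 and 0.964 times their unstimulated level for the knockout libraries numbered 1, 2 and 3, and 0.978, 0.867 and 1.11 times for the wild-type ones. Hbb-bt with CpG was 1.05, 1.58 and 1.46 times its unstimulated level in the knockout, at 7 to 89 counts, and 0.925, 0.83 and 1.1 times in wild-type. Klf1 had the lowest estimates, a log2 fold change of -1.11 (SE 0.92) in knockout cells and -0.94 (SE 0.83) in wild-type cells (edgeR adjusted p = 0.561 and 0.703), and the first turned to 0.71 without unstimulated knockout 3.

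Among the 69 tested list genes CpG raised 2 and lowered 1 in knockout cells and raised 1 and lowered 1 in wild-type cells, smaller shares than the 11.6% and 6.04% called over all genes. These genes, of which Ldb1 and Slc11a2 are named after their values were seen, were the mitochondrial iron importer gene Slc25a37, higher in knockout (log2 0.40, SE 0.11; edgeR adjusted p = 0.0264) and wild-type cells (log2 0.40, SE 0.11; adjusted p = 0.0415), the transcription cofactor gene Ldb1, lower in knockout (log2 -0.37, SE 0.10; edgeR adjusted p = 0.0342) and wild-type cells (log2 -0.45, SE 0.10; adjusted p = 0.0186), and the iron transporter gene Slc11a2, higher in knockout cells (log2 1.79, SE 0.53; adjusted p = 0.0429). Slc25a37 stood at 144 to 199 CPM in knockout cells with CpG and 121 to 153 CPM in unstimulated ones, a far smaller spread among knockout libraries than that of the globins. For the list as a whole the median log2 fold change was -0.10 in knockout and -0.14 in wild-type cells.

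Across all 12 libraries the members fell into different company. With log2 CPM of summed alpha-globin, Pearson's r was 0.995 for Alas2, 0.993 for Car2, 0.974 for Hbb-bs, 0.833 for Klf1 and 0.574 for Hbb-bt. The genes most like alpha-globin outside the members included Slc4a1 (r = 0.986), Prxl2a (0.984), Abcb4 (0.983), Bpgm (0.982), Xpo7 (0.981), Hemgn (0.980) and Cd36 (0.979), among them the gene for the red cell anion exchanger band 3 (Slc4a1). Slc4a1 held 11.9, 66.3 and 214 CPM in knockout libraries 1 to 3 with CpG and 13.4, 73.1 and 279 CPM unstimulated, against 93.4 to 134 CPM in wild-type libraries with CpG and 117 to 152 CPM unstimulated, the same grading by number as the globins. The genes most like Hbb-bt included Zfp950 (r = 0.990), Clns1a (0.990), Gm16867 (0.989), Mrpl34 (0.986), Coa4 (0.985), Man2a2 (0.984) and Zbtb44 (0.983). Of these, Clns1a, Coa4 and Man2a2 lie on chromosome 7 as Hbb-bt does. Coa4 held 1.18 to 1.54 CPM in knockout libraries and 16.2 to 19.4 CPM in wild-type ones, with no grading like that of alpha-globin. These correlations describe 12 libraries that share groups and depth, and a gene that separates the genotypes scores high against Hbb-bt whatever its role.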

How the data were processed

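PolyA RNA of 12 libraries (4 groups of 3) was sequenced on an Illumina instrument at BGI Genomics, per the labels' protocols. The authors deposited RSEM expected counts for each RefSeq transcript, with TPM and FPKM that the authors had scaled for length and depth, per the file headers. FPKM was not used. Bowtie2 (version not given in the sources used here), RSEM 1.2.28 and GRCm39 are named in the submitters' processing notes, without roles.

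Counts of 54716 transcripts per library were summed per NCBI gene and rounded, since 80.4% of nonzero transcript counts were not whole. This gave 15986 genes, 15883 of them with a symbol. Names and gene order came from RefSeq GRCm38.p6, an earlier build, so no gene coordinates were taken from it, and promoters with their coordinates are on that build. CPM was scaled to the sum of all estimated counts of a library.

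Low genes were removed with filterByExpr (smallest count 10, smallest total 15). All 12 libraries entered 1 quasi-likelihood fit in edgeR 4.0.16 (R 4.3.3) with TMM scaling, a mean for each group and 8 residual degrees of freedom. In each of 5 comparisons the Benjamini-Hochberg adjustment ran over all 10802 genes. The common dispersion (0.0293) equals a coefficient of variation of 17.1%. Log2 ratios of counts plus 1 were compared by exact permutation of genotype within treatment (400 arrangements). The model and the permutation were tested on simulated data. Alternatives were other scalings and filters, DESeq2 1.42.0, a robust fit, the libraries compared alone, replicate blocks, the alpha-globin covariate, other pseudocounts, TPM plus 0.1, curated transcripts, Alas2 as denominator and leaving out each library. The named genes were the members, list genes called in a genotype comparison (at most 4 per list), the most abundant genes of the lists, at most 6 called neighbours per member and the 8 genes most like each of alpha-globin and Hbb-bt. The members, lists and naming rule were chosen with earlier results of these data known. Some genes that the rule would name are not reported here.

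Residuals of same-numbered CpG and unstimulated libraries correlated at 0.28, 0.41 and 0.44 in wild-type, all above 0.1, which pairs them, and at 0.62, 0.09 and 0.67 in the knockout, where number 2 missed 0.1.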

Additional observations from a re-analysis of the deposited data

How the results depend on the processing

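With 23 alternatives in each treatment the fall of Hbb-bt kept its direction and its call. The count of members called was 2, not 1, in both treatments with the alpha-globin covariate and without the knockout libraries numbered 3, since Hbb-bs was then also called. Leaving out each library in turn gave 1 member called in each genotype comparison, and 0 in the CpG comparisons and the interaction. Log2 fold changes, lowest and highest without 1 library, were -1.60 and 0.13 for Hba-a1, -1.62 and 0.15 for Hba-a2, -1.52 and 0.28 for Alas2 and -1.75 and 0.12 for Car2 unstimulated; -1.81 and 0.08, -1.64 and 0.11, -1.51 and 0.20, and -1.43 and 0.18 for the same genes with CpG; and -1.92 and 0.71 for Klf1 with CpG in the knockout. The positive genotype values came without knockout library 1 of that treatment. Without both knockout libraries numbered 1 the values were 0.17 and 0.11 for Hba-a1, 0.19 and 0.14 for Hba-a2, 0.32 and 0.23 for Alas2, 0.16 and 0.21 for Car2 (unstimulated, then with CpG) and 0.01 for Klf1 unstimulated. With the covariate Alas2 gave 0.03 and 0.16, and Car2 0.19 with CpG. The cause of these changes was not tested.

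The log2 ratio of Alas2 to alpha-globin was -0.01 in TPM. With the replicate block (means per genotype and number) the ratios were -5.76 for the Hbb-bt share, -6.73 for Hbb-bt, -0.71 for Hbb-bs and -0.96 for summed beta-globin per alpha-globin, each at exact permutation p = 0.1, the smallest that design can give. With replicate number as a block in edgeR, Hbb-bt was at -7.69 (adjusted p = 3.16e-05) unstimulated and -7.06 (4.92e-05) with CpG, and no call among the members changed. A block by animal, taking libraries of the same genotype and number as 1 animal, covered only the CpG comparisons and the interaction. It changed no call among the members there. The genotype calls cannot be tested with that block, since each such animal has only 1 genotype.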
